A study of Mus musculus with 18 samples.

Results

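The genes of 7 RNA-binding proteins were followed across nuclear and whole cell samples: the FET family genes Ewsr1 and Taf15, the TDP-43 gene Tardbp, the paraspeckle protein genes Sfpq, Nono and Pspc1, and the nuclear matrix protein gene Matr3. Their loci were found by matching these 7 symbols to the gene names of the deposited locus annotation. This gave 7 loci, 1 per gene, of 52179 loci that carry a gene symbol, and all 7 were among the 15579 loci with enough reads to be tested. The samples came from Neuro2A (N2A) cells, a single mouse neuroblastoma line with the genotype WT in every group. Cells received a biotinylated miR-92b mimic or a biotinylated scrambled mimic (Scr) at 25 nM, or were control cells, for which the labels name no mimic. Lysates of isolated nuclei or of whole cells were taken after 2 days, RNA bound to the mimic was collected on streptavidin beads, and polyadenylated RNA was sequenced with stranded libraries. Whether the control lysates were also put on beads is not stated in the sources used here. This made 6 groups of 3 samples (nuclear control, nuclear Scr, nuclear miR-92b, whole cell control, whole cell Scr and whole cell miR-92b). Nothing in the labels says that the samples of a group were separate cultures, so p-values measure the spread between these samples, which may be technical.

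The 7 proteins are abundant RNA-binding proteins that work mainly in the nucleus and are known from neurodegenerative disease and from the assembly of RNA granules. EWSR1 and TAF15 bind nascent RNA and couple transcription to splicing, and TDP-43 represses the use of cryptic exons and regulates its own transcript. SFPQ, NONO and PSPC1 form the DBHS family, which pair with each other and gather on the long noncoding RNA NEAT1 to build paraspeckles, bodies in the nucleus that retain some RNAs. Matrin 3 is an RNA-binding and DNA-binding protein of the nuclear matrix that also takes part in splicing.

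Reads on loci with a symbol numbered 3752991 to 22920038 per sample, and the member loci held 515 reads (Nono) to 23909 reads (Matr3) in a sample. The nuclear RNAs Neat1, Malat1 and Kcnq1ot1 were higher in nuclear samples and the cytoplasmic markers Gapdh, Actb, Tubb5, Eef2 and Rplp0 were lower, 3 of 4 and 5 of 5 markers tested; Meg3 did not pass, and Miat was too low to be tested. All 11 neuroblastoma markers reported here had reads. Their lowest medians were those of Dbh, 41.1 in nuclear and 55.7 in whole cell samples, beside 41.4 and 41.3 for Gfap and 52.0 and 101 for Mbp. The medians of the astrocyte marker Aqp4, the leukocyte markers Ptprc and Cd68 and the fibroblast markers Col1a1 and Col1a2 were 0 in both compartments. The astrocyte marker Gfap and the oligodendrocyte markers Mog and Mbp had medians of at most 101. Whole cell miR-92b sample 3 stood apart from the other 2 samples of its group, with a chi-square per locus of 122 and 116 against 5.68 to 56.3 for the other pairs of samples within a group. This chi-square is taken on reads and grows with depth. The mean correlation of log2 normalized counts with the sample's own group was 0.752, beside 0.751 and 0.753 for nuclear Scr samples 2 and 3. The members' differences in normalized counts that use whole cell miR-92b sample 3 are also given without it.

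The seed of miR-92b (bases 2 to 8, in capitals), the stretch through which a miRNA pairs with its targets, is shared by 6 mature mouse miRNAs in RefSeq (GRCm38.p6), and these are shown because a match to one is a match to all. The labels do not say which arm the mimic copied, and the 3p strand, encoded at chr3:89227126-89227147 on the minus strand, is given here.
miR-92b-3p: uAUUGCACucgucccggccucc
miR-92a-3p: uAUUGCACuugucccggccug
miR-25-3p: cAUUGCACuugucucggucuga
miR-32-5p: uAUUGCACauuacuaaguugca
miR-363-3p: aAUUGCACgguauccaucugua
miR-367-3p: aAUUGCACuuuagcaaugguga

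The complement of this seed, the 7 bases GTGCAAT, was searched on the transcribed strand of the annotated exons (GENCODE M21, GRCm38). No match lay in the 3′ UTR of any of the 7 members, whose longest annotated 3′ UTRs run from 286 bases (Taf15) to 5879 bases (Tardbp), beside 8.06% of 11415 protein-coding symbols with a 3′ UTR on tested loci. Over all exons, 2 of 7 members held a match, beside 16.8% of 11563 protein-coding symbols. Both were FET genes with the match in coding sequence, and they are shown with the seed match in capitals. In Ewsr1 it was in 6 of 13 annotated transcripts (chr11:5078538-5078567, minus strand), and in Taf15 in 2 of 5 (chr11:83504461-83504490, plus strand).
Ewsr1: actctgacaacaGTGCAATttatgtgcaag
Taf15: ctcctgtaatcaGTGCAATgagcctagacc
A match of these letters describes the sequence only. Tardbp, Sfpq, Nono, Pspc1 and Matr3 had none in any annotated exon.

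Per transcript length, the 7 loci spanned a wide range of levels. FPKM, in which fragments are scaled to the length of the transcript and to sequencing depth, averaged 177 over the 18 samples for Matr3, 146 for Tardbp, 135 for Ewsr1 and 114 for Taf15. The 3 DBHS loci were lower, at 65.8 for Sfpq, 36.4 for Nono and 17.9 for Pspc1. Normalized counts, in which reads are divided by a factor for the depth of the sample and are not scaled to length, gave another order: Matr3 ranked 41 of the 15579 tested loci with a mean of 6873, Sfpq 112, Ewsr1 146, Pspc1 247, Taf15 387, Tardbp 461 and Nono 1462 with a mean of 905. Pspc1 thus stood above Taf15, Tardbp and Nono by counts and last by FPKM.

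**Figure D1:**
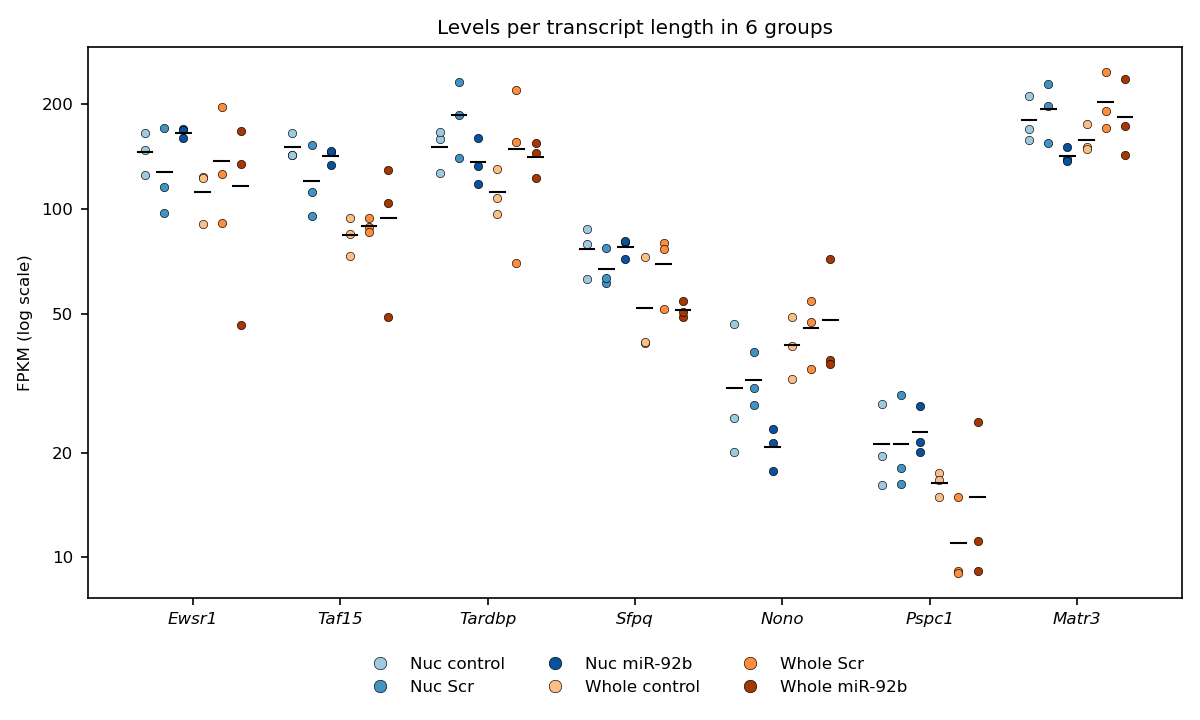
FPKM of the 7 loci (log scale) in each of the 18 samples, coloured by group, with a bar at the mean of the 3 samples of a group. Matr3, Tardbp, Ewsr1 and Taf15 lay between 46.6 and 248, Sfpq between 41.2 and 88.0, and Nono and Pspc1 lowest. Nono was the locus whose whole cell means (40.7 to 48.2) were all above its nuclear means (20.8 to 32.3).

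Several loci join more than 1 annotated gene, and their values cannot be split. The Ewsr1 (chr11:5066923-5106093), Taf15 (chr11:83473086-83506743) and Tardbp (chr4:148602554-148627019) loci carry a single symbol. The Ewsr1 and Tardbp regions reach past the annotated genes (chr11:5069689-5099266 and chr4:148612382-148627019). Further loci are listed with the identical region, 1 each for Ewsr1 and Tardbp and 3 for Sfpq, and are not among the members. The Sfpq locus (chr4:127021300-127061152) also carries Gm12940, a noncoding transcript on the same strand that overlaps 216 exonic bases of Sfpq. The Nono locus (chrX:101429318-101455080) also carries Itgb1bp2, the gene downstream of it. The Pspc1 locus (chr14:56708169-56778328) also carries C030013D06Rik. The Matr3 locus (chr18:35553371-35595854) carries 5 further symbols, among them Snhg4, a small nucleolar RNA host gene, and its snoRNA Snora74a.

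The compartments were compared first, because paraspeckle proteins act in the nucleus and the study contrasted nuclear with whole cell RNA. Averaged over control, Scr and miR-92b, 6 of the 7 loci were higher in nuclear than in whole cell samples: Pspc1 by 1.03 on the log2 scale, Sfpq by 0.68, Taf15 by 0.61, Ewsr1 by 0.59, Tardbp by 0.46 and Matr3 by 0.39. Larger differences were held by 16.8% of all tested loci for Pspc1, 27.1% for Sfpq and 29.8% for Taf15. For Ewsr1, Tardbp and Matr3 these shares were 30.5%, 35.7% and 38.5%. Nono did not pass the test and had a negative difference of -0.26. The test was limma on log2(normalized count + 1) over all 15579 loci, with an adjusted p under 0.05 as the threshold. Of all tested loci 31.0% passed it, 15.3% as higher in nuclear samples and 15.8% as lower, and the median difference of all loci was 0.14. Differences are relative to the authors' size factors; with samples rescaled to the same median, the split of all called loci moved from 2377 higher and 2454 lower to 2908 higher and 2119 lower, while the same 6 members were called.

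**Figure D2:**
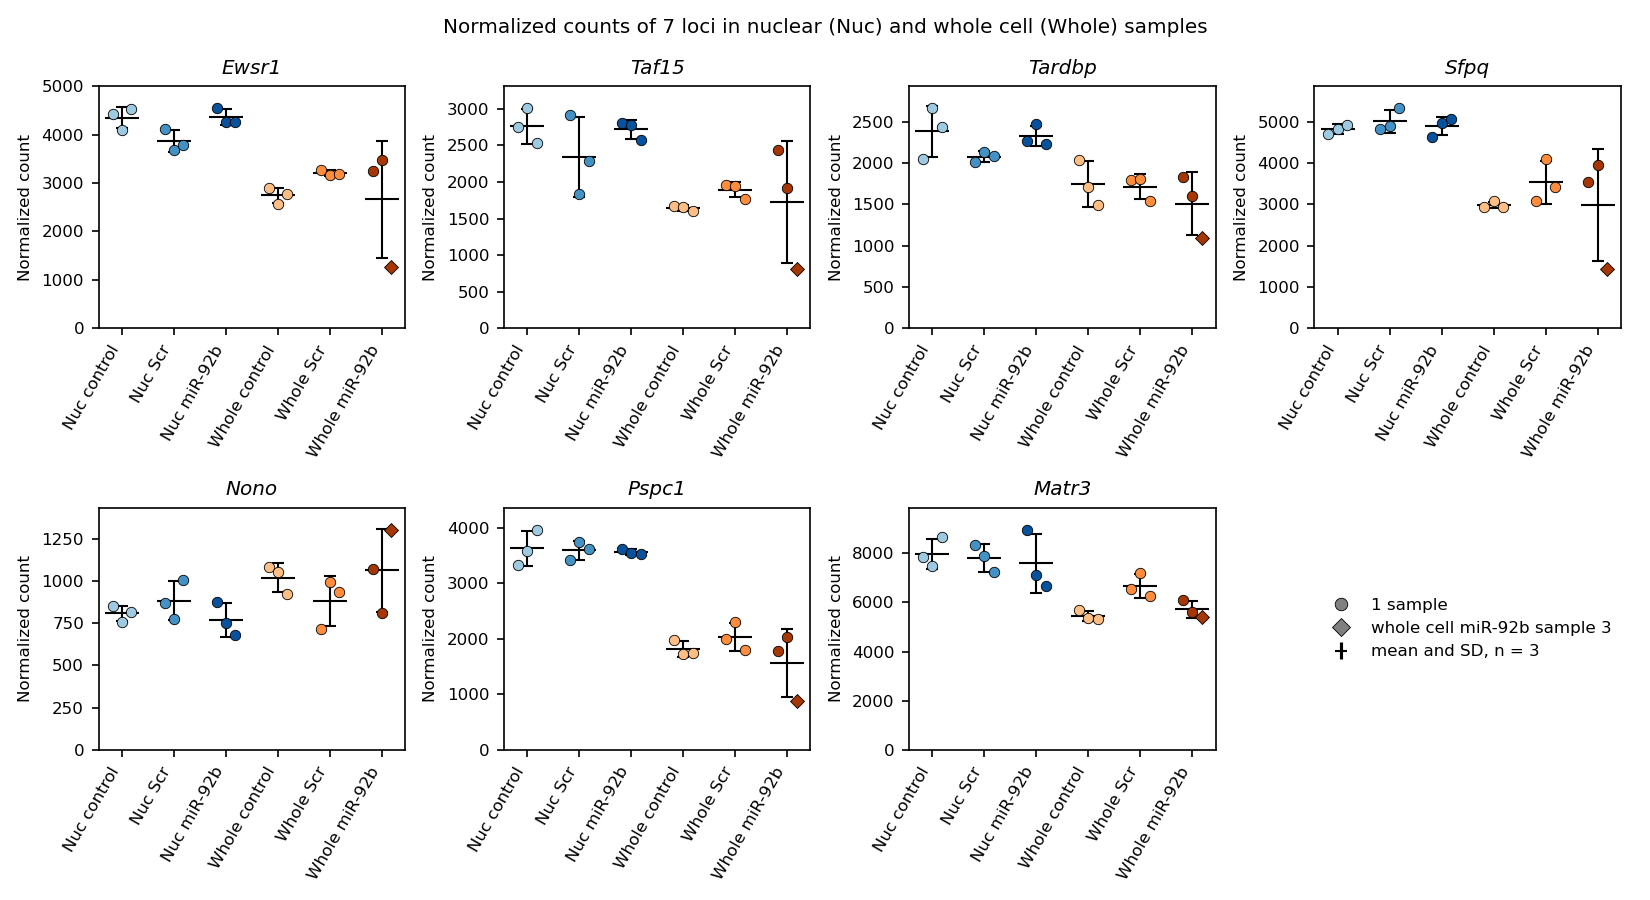
Normalized counts of the 7 loci in the 18 samples; points are samples, the diamond is whole cell miR-92b sample 3, and bars give the mean and SD of 3 samples. For Ewsr1, Sfpq and Pspc1 the 9 nuclear samples all lay above the 9 whole cell samples, and for Nono the nuclear samples (682 to 1004) lay within or below the range of the whole cell samples (716 to 1306). The share of all tested loci that separate in this way was not counted.

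Of the FET genes, Ewsr1 had normalized counts of 4425, 4098 and 4525 in nuclear control, 4112, 3681 and 3781 in nuclear Scr, and 4547, 4264 and 4267 in nuclear miR-92b samples. The whole cell values were 2890.5, 2569.8 and 2767 in control, 3266, 3168 and 3183 in Scr, and 3244, 3469.9 and 1275 in miR-92b samples. All 9 nuclear values were above all 9 whole cell values, and whole cell miR-92b sample 3 was the lowest of the 18. How many of all tested loci separate in this way was not counted, here or for Pspc1 and Sfpq below. The groups ran from nuclear miR-92b (4359 ± 163, SD, n = 3) through nuclear control and nuclear Scr to whole cell Scr, whole cell control and whole cell miR-92b (2663 ± 1207). Neighbours in this order overlapped except nuclear Scr against whole cell Scr and whole cell Scr against whole cell control. The compartment difference was 1.51-fold (log2 0.59, SE 0.14, 95% confidence interval 0.31 to 0.88, adjusted p = 0.00206, limma).

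Taf15, the other FET gene, had 2748, 3010.4 and 2531 in nuclear control, 2921, 1837 and 2281 in nuclear Scr, and 2812, 2775 and 2572 in nuclear miR-92b samples. In whole cell samples it had 1673, 1662 and 1599.6 in control, 1965, 1950.3 and 1773 in Scr, and 2440.4, 1916 and 817 in miR-92b. The compartments overlapped: nuclear Scr sample 2 was below 4 whole cell samples, and whole cell miR-92b sample 1 was the highest whole cell value while sample 3 was the lowest. All 5 neighbouring pairs of groups in the order of the means overlapped. The difference was 1.52-fold (log2 0.61, SE 0.15, adjusted p = 0.00292, limma).

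Tardbp ranged from 2005 to 2664 in nuclear samples (median 2234) and from 1094 to 2037 in whole cell samples (median 1714). Only whole cell control sample 1, at 2037, lay above the lowest nuclear value, and whole cell miR-92b sample 3 was again the lowest. The means were 2380.5 ± 311 in nuclear control, 2323 ± 124 in nuclear miR-92b, 2075 ± 65.5 in nuclear Scr, 1746 ± 276 in whole cell control, 1711 ± 152 in whole cell Scr and 1508 ± 376 in whole cell miR-92b (SD, n = 3). Of neighbours in this order, nuclear miR-92b and nuclear Scr did not overlap. The difference between compartments was 1.38-fold (log2 0.46, SE 0.11, adjusted p = 0.00179, limma).

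Among the DBHS genes, Pspc1 showed the largest compartment difference of the 7 loci. It had 3327, 3582 and 3966 in nuclear control, 3409.7, 3749.7 and 3609 in nuclear Scr, and 3619.5, 3549 and 3522 in nuclear miR-92b samples. In whole cell samples it had 1974, 1728 and 1739.9 in control, 1991, 2298 and 1805 in Scr, and 1779, 2029 and 874 in miR-92b. The lowest nuclear value, 3327, was above the highest whole cell value, 2298, and within each compartment the neighbouring groups overlapped. The difference was 2.05-fold (log2 1.03, SE 0.12, 95% confidence interval 0.78 to 1.29, adjusted p = 9.52e-07, limma), and 16.8% of all tested loci had a larger one.

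Sfpq, whose protein is the partner of both other DBHS proteins, had 4696, 4832 and 4936 in nuclear control, 4822, 4898 and 5335 in nuclear Scr, and 4641, 4973 and 5059 in nuclear miR-92b samples. The whole cell values were 2950.4, 3075 and 2931 in control, 3086, 4103 and 3413 in Scr, and 3554, 3955 and 1437 in miR-92b. No whole cell sample reached the lowest nuclear value, and the 3 nuclear groups overlapped with each other. The difference was 1.61-fold (log2 0.68, SE 0.14, adjusted p = 6.25e-04, limma).

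Nono, the third DBHS gene, did not pass. It had 852, 759.7 and 815 in nuclear control, 873, 773 and 1004 in nuclear Scr, and 878, 753 and 682 in nuclear miR-92b samples. In whole cell samples it had 1087, 1056 and 921 in control, 716, 992 and 937 in Scr, and 1074, 812 and 1306 in miR-92b. The compartments overlapped widely, and whole cell miR-92b sample 3, the lowest sample for Ewsr1, Taf15, Tardbp, Sfpq and Pspc1, was the highest for Nono. All 5 neighbouring pairs of groups overlapped. The nuclear level was 0.837 times the whole cell level (log2 -0.26, SE 0.11, 95% confidence interval -0.49 to -0.024, unadjusted p = 0.0324, adjusted p = 0.0868, limma).

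Matr3 ranged from 6673 to 8971 in nuclear samples and from 5308 to 7199.7 in whole cell samples. Its means were 7987 ± 609 in nuclear control, 7817 ± 562 in nuclear Scr, 7592 ± 1216 in nuclear miR-92b, 6664 ± 483 in whole cell Scr, 5716 ± 355 in whole cell miR-92b and 5463 ± 209 in whole cell control (SD, n = 3). Whole cell Scr lay above the other 2 whole cell groups without overlap and overlapped with nuclear miR-92b. The difference between compartments was 1.31-fold (log2 0.39, SE 0.093, adjusted p = 0.00248, limma).

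Leaving out whole cell miR-92b sample 3 kept all 6 calls, with differences of 0.91 for Pspc1, 0.53 for Sfpq, 0.45 for Taf15, 0.44 for Ewsr1, 0.39 for Tardbp and 0.38 for Matr3, and Nono stood at -0.20 (adjusted p = 0.144, limma). Without it 28.6% of all loci were called. On the FPKM scale, log2(FPKM + 0.1), 4 members passed: Taf15 (0.65, adjusted p = 0.00888), Pspc1 (0.67, adjusted p = 0.0264) and Sfpq (0.39, adjusted p = 0.0460) were higher in nuclear samples, and Nono (-0.70, adjusted p = 0.0125, limma) was lower. On that scale Ewsr1 (0.34, adjusted p = 0.286) and Tardbp (0.28, adjusted p = 0.296) did not pass, and Matr3 had a difference of the other sign (-0.08, adjusted p = 0.701, limma). The FPKM fit includes whole cell miR-92b sample 3 and was not repeated without it. The share of all loci called on the FPKM scale is not given here, so the members' count there has no reference.

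**Figure D3:**
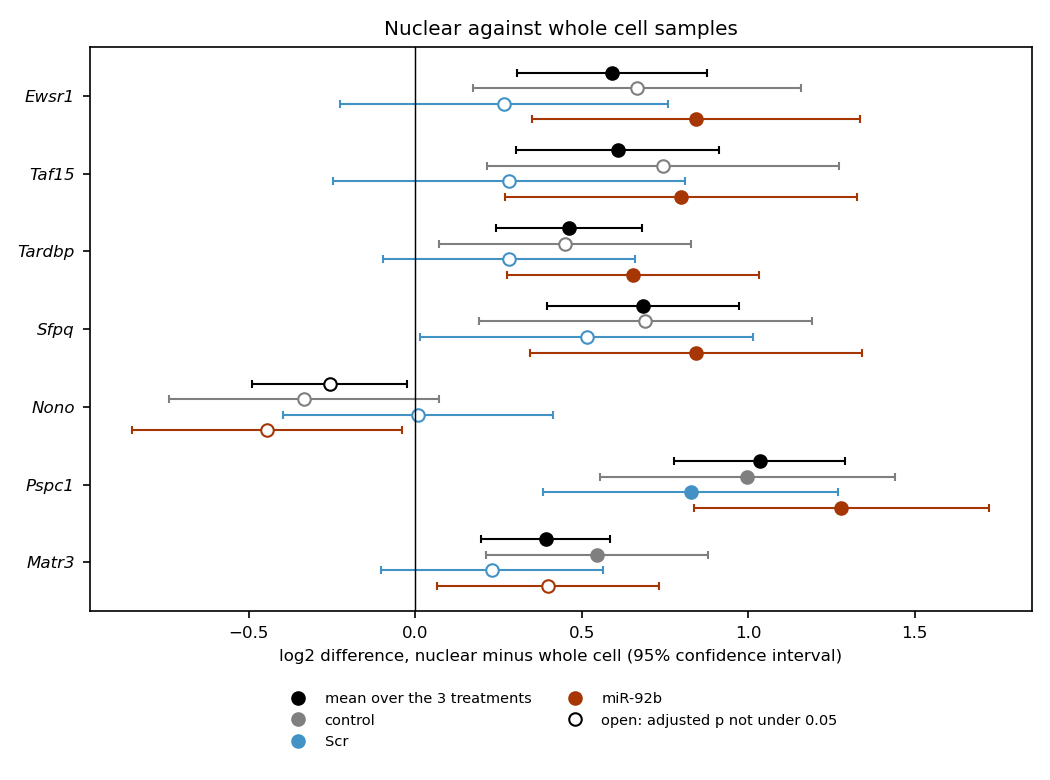
Log2 difference of nuclear minus whole cell samples for the 7 loci, with 95% confidence intervals, for the mean over the 3 treatments and for each treatment; filled points passed the test. In the mean, 6 loci lay to the right of 0 and passed, and Nono (-0.26) lay to the left and did not.

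Whether the members shifted against each other was asked from ratios within a sample, which do not depend on the size factor. For each of the 21 pairs, the log2 ratio of normalized counts was compared between 9 nuclear and 9 whole cell samples by an exact two-sided permutation within treatments (8000 arrangements, smallest possible p 0.00025). The p-values below are not adjusted over the 21 pairs, and the pairs shown were chosen after their values were seen. The share of all pairs of tested loci that shift or separate in this way was not counted. Shifts of a locus against the others all use its values, so they are not independent. The Sfpq to Nono ratio came to 2.59 ± 0.17 in nuclear samples against 1.65 ± 0.63 in whole cell samples (SD, n = 9, difference 0.94, exact permutation p = 0.00025), without overlap. The Nono to Pspc1 ratio stood at -2.13 ± 0.18 in nuclear and at -0.84 ± 0.59 in whole cell samples (difference -1.29, exact permutation p = 0.00025), again without overlap. Nono fell against each of the other 6 loci in nuclear samples, by 0.65 (Matr3) to 1.29 (Pspc1) on the log2 scale, with exact permutation p-values of 0.00025 to 0.00075.

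Without whole cell miR-92b sample 3 these 6 shifts of Nono were 0.58 (Matr3) to 1.11 (Pspc1) in size, with exact permutation p-values of 0.00025 to 0.00125. On the FPKM scale they were 0.63 (Matr3) to 1.37 (Pspc1), with exact permutation p-values of 0.00025 to 0.00775. Pspc1 rose against each of the other 6 loci, by 0.35 (Sfpq) to 1.29 (Nono), with exact permutation p-values of 0.00025 to 0.00075. Leaving that sample out, these shifts were 0.38 (Sfpq) to 1.11 (Nono), with exact permutation p-values again of 0.00025 to 0.00075. On the FPKM scale 4 of these 6 shifts of Pspc1 lost the call, those against Ewsr1 (exact permutation p = 0.445), Taf15 (exact permutation p = 0.955), Tardbp (exact permutation p = 0.146) and Sfpq (exact permutation p = 0.285). For the FET pair, the Ewsr1 to Taf15 ratio came to 0.69 ± 0.17 in nuclear against 0.71 ± 0.14 in whole cell samples (difference -0.02, exact permutation p = 0.823), and without that sample the difference was -0.016 (exact permutation p = 0.848). The FPKM scale gave a larger difference for this pair, -0.31 (exact permutation p = 0.0578).

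**Figure D4:**
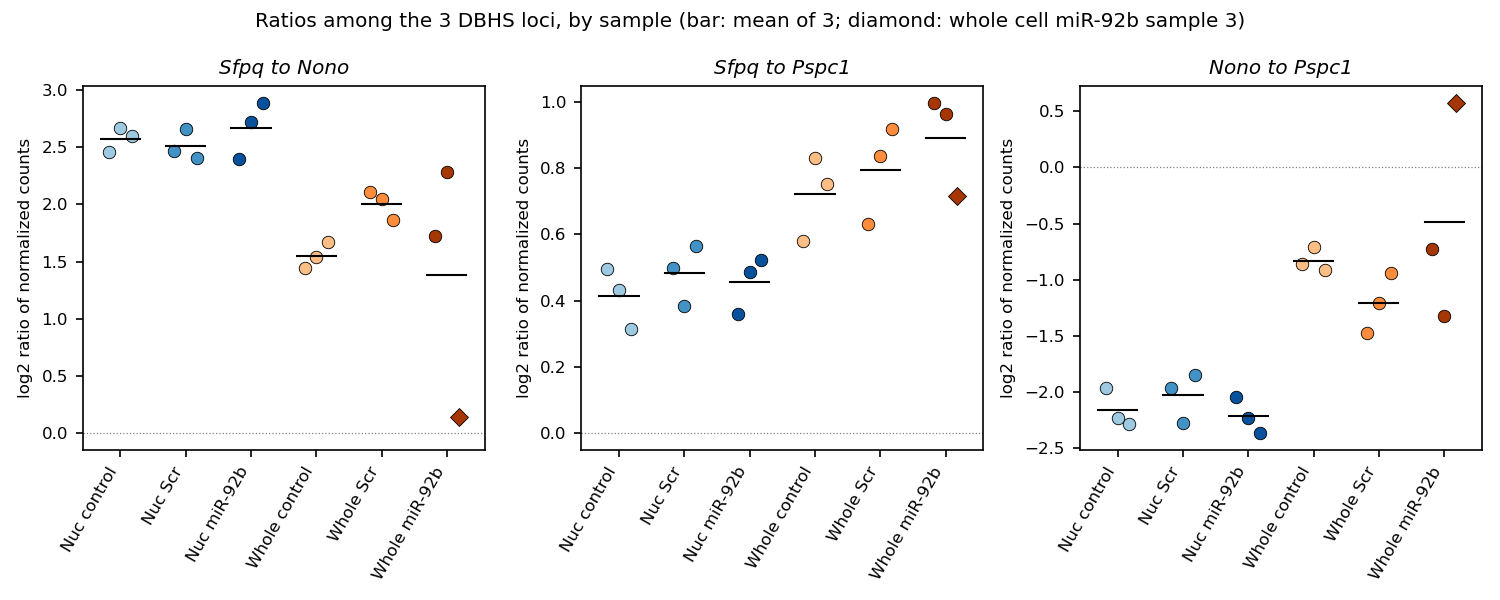
Log2 ratios of normalized counts among the 3 DBHS loci in each sample, with a bar at the group mean and a diamond for whole cell miR-92b sample 3. In all 3 panels the 9 nuclear samples are separate from the 9 whole cell samples. Sfpq to Nono was higher in nuclear samples (2.59 against 1.65) and Nono to Pspc1 was lower (-2.13 against -0.84). The share of all pairs of tested loci that separate in this way was not counted.

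Within single treatments the same comparison rests on 3 against 3 samples. In control cells 2 members were called, Pspc1 (0.997, adjusted p = 0.00354) and Matr3 (0.55, adjusted p = 0.0318, limma), both higher in nuclear samples, where 2.94% of all loci were called higher, 6.91% lower and 9.85% in either direction. Ewsr1 (0.67), Taf15 (0.74), Sfpq (0.69) and Tardbp (0.45) had unadjusted p-values under 0.05 and did not pass after adjustment. Without whole cell miR-92b sample 3, which enters this comparison only through the shared spread, 6 members were called in control cells, and the share of all loci rose as well, to 15.6% called and 6.55% called higher.

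With Scr only Pspc1 passed (0.83, adjusted p = 0.0263, limma), beside 1.46% of all loci called higher, 3.70% lower and 5.17% in either direction. The other 6 had differences of 0.0082 (Nono) to 0.51 (Sfpq). Sfpq passed too without whole cell miR-92b sample 3 (adjusted p = 0.00691, limma), beside 11.2% of all loci called and 4.88% called higher. With miR-92b 5 members passed as higher in nuclear samples, beside 6.66% of all loci called higher, 6.63% lower and 13.3% in either direction: Pspc1 (1.28, adjusted p = 3.01e-04), Sfpq (0.84, adjusted p = 0.0225), Ewsr1 (0.84, adjusted p = 0.0208), Taf15 (0.80, adjusted p = 0.0400) and Tardbp (0.65, adjusted p = 0.0196, limma). Matr3 (0.40, adjusted p = 0.104) and Nono (-0.45, adjusted p = 0.136) did not. These differences were smaller without whole cell miR-92b sample 3. Pspc1 (0.91, adjusted p = 1.23e-04, limma) was then still called, while Sfpq (0.38, adjusted p = 0.0940), Ewsr1 (0.38, adjusted p = 0.0748), Taf15 (0.33, adjusted p = 0.280) and Tardbp (0.44, adjusted p = 0.1003) were not, beside 6.26% of all loci called and 2.85% called higher. Matr3 (0.36) and Nono (-0.28) again did not pass. Pspc1 was also the 1 member still called when any 1 of the nuclear miR-92b samples was left out. On the FPKM scale all 5 calls with miR-92b were lost, and Nono was called lower in nuclear samples (-1.14, adjusted p = 0.0391, limma). Its FPKM in whole cell miR-92b samples 1, 2 and 3 was 36.9, 35.9 and 71.8. The FPKM fit was not repeated without sample 3, and the share of all loci that it called is not given here.

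The miR-92b pulldown was set against the Scr pulldown to ask which RNAs the mimic collected. In nuclear samples no member was called, and the differences ran from -0.20 (Nono, 95% confidence interval -0.60 to 0.21) to 0.24 (Taf15, -0.29 to 0.77). Of all tested loci 0% were called by limma, with 687 at an unadjusted p under 0.05, none of them a member. The 2 loci with a seed match in coding sequence had differences of 0.18 (Ewsr1, -0.32 to 0.67) and 0.24 (Taf15), and those of Tardbp, Sfpq, Pspc1 and Matr3 were 0.16, -0.04, -0.01 and -0.05.

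In whole cell samples no member was called either, beside 0.00642% of all loci (1 locus, with 1515 at an unadjusted p under 0.05). Of the 7 loci 6 had lower means with miR-92b, by 0.21 (Tardbp) to 0.46 (Pspc1) on the log2 scale, and Nono had a higher one (0.26). Pspc1 was the 1 member with an unadjusted p under 0.05 (-0.46, 95% confidence interval -0.91 to -0.018, adjusted p = 0.496, limma). Without whole cell miR-92b sample 3 the values were 0.066 for Ewsr1, 0.19 for Taf15, 0.0049 for Tardbp, 0.095 for Sfpq, -0.089 for Pspc1, 0.097 for Nono and -0.18 for Matr3, so that Ewsr1, Taf15, Tardbp and Sfpq changed sign. The counts of 0 held with edgeR and with DESeq2 in both compartments, although DESeq2 called 176 of all loci in whole cell samples.

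Compartment markers moved along with these contrasts without passing the test. In nuclear samples the median difference was -0.88 for the 5 cytoplasmic and 0.070 for the 4 nuclear markers, and in whole cell samples the medians were 0.41 and -0.56, or -0.15 and -0.16 without whole cell miR-92b sample 3. Their part in the members' values was not tested. The difference between the nuclear and the whole cell effect of miR-92b over Scr was -0.45 for Nono and 0.17 (Matr3) to 0.58 (Ewsr1) for the others. It was called for no member (lowest unadjusted p = 0.1003, limma), beside 0.00642% of all loci. Without whole cell miR-92b sample 3 it was 0.11 for Ewsr1, 0.047 for Taf15, 0.16 for Tardbp, -0.13 for Sfpq, 0.080 for Pspc1, 0.13 for Matr3 and -0.29 for Nono, with no member called, so that Sfpq changed sign.

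**Figure D5:**
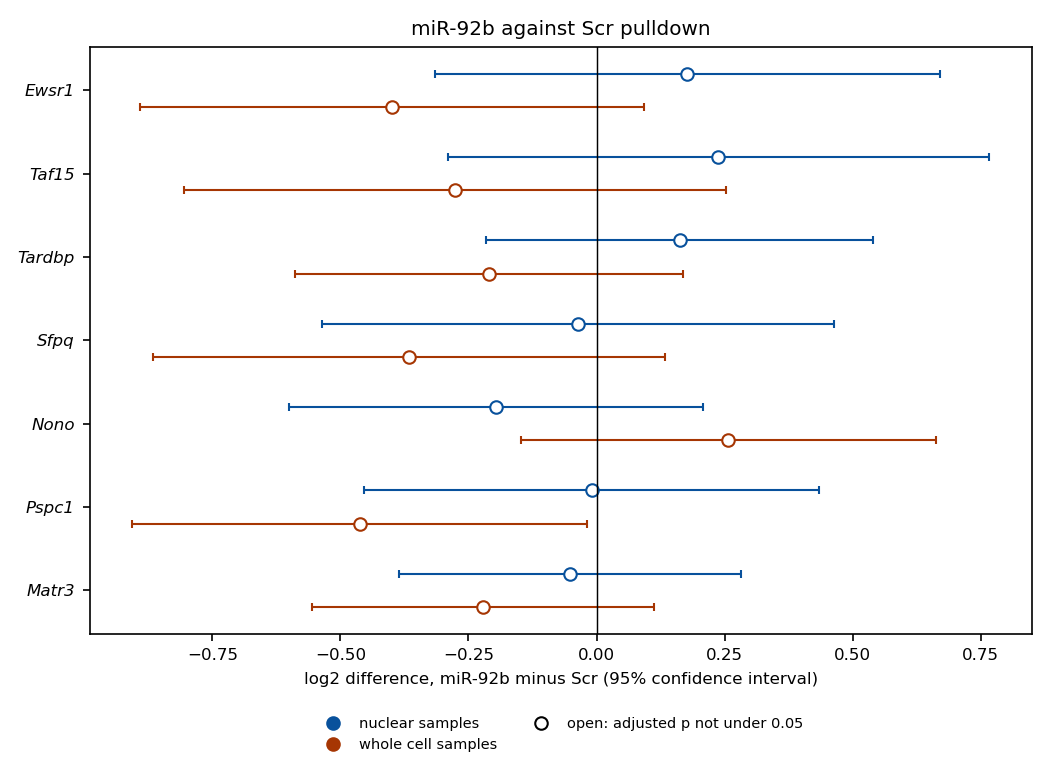
Log2 difference of miR-92b minus Scr samples for the 7 loci in nuclear and in whole cell samples, with 95% confidence intervals. No point passed the test; all nuclear intervals include 0, and of the whole cell intervals that of Pspc1 (-0.91 to -0.018) does not.

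Against control cells, no member was called with either mimic in either compartment, and none had an unadjusted p under 0.05 by limma. Differences ran from -0.082 (Matr3) to 0.020 (Sfpq) for nuclear miR-92b and from -0.30 (Pspc1) to 0.064 (Matr3) for whole cell miR-92b. Leaving out whole cell miR-92b sample 3, the latter ran from -0.13 (Nono) to 0.39 (Taf15), with Ewsr1 at 0.29, Sfpq at 0.33 and Pspc1 at 0.070. No member was called, and Ewsr1, Taf15 and Sfpq then had an unadjusted p under 0.05 and an adjusted p of 0.538 to 0.554 by limma. They ran from -0.26 (Taf15) to 0.12 (Nono) for nuclear Scr and from -0.22 (Nono) to 0.28 (Matr3) for whole cell Scr. Of all loci 0% were called in nuclear miR-92b and in both Scr comparisons, and 0.00642% in whole cell miR-92b. The miR-92b comparisons with Scr and with control share the miR-92b samples, and the Scr and miR-92b comparisons share the control samples.

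The ratio of normalized count to FPKM of a locus moves with the length of the transcripts to which the assembly gave its reads. It is not a measured length. Relative to the median locus of a sample, this implied length was 6.31 times for Pspc1 in nuclear and 5.40 times in whole cell samples, and 2.49 and 2.25 times for Sfpq. Matr3 stood at 1.71 and 1.36, Nono at 1.14 and 0.924, Ewsr1 at 1.081 and 0.9995, Taf15 at 0.710 and 0.803, and Tardbp at 0.542 and 0.525. Between compartments 1 member passed, beside 23.2% of 9575 loci: Taf15 had a smaller implied length in nuclear samples (log2 -0.18, SE 0.049, adjusted p = 0.0239, limma), where 13.4% of loci were called shorter by this ratio and 9.82% longer. Its range was -0.59 to -0.31 in nuclear and -0.46 to -0.13 in whole cell samples, and without nuclear miR-92b sample 2 it was not called (adjusted p = 0.0502, limma). The call also rested on centring each sample on its median locus: without centring Taf15 stood at -0.038 (adjusted p = 0.630) and Matr3 at 0.47 (adjusted p = 0.0170, limma) was the member called, and 20.9% of all loci were called longer and 2.03% shorter. Matr3 (0.33, adjusted p = 0.0558) and Nono (0.31, adjusted p = 0.207) had the largest positive differences with centring and did not pass, although Matr3 also did without nuclear Scr sample 2 (0.36, adjusted p = 0.0464) or whole cell miR-92b sample 2 (0.38, adjusted p = 0.0338, limma).

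In the annotation, 5 of the 7 members have a transcript with a retained intron, beside 58.7% of the 11563 protein-coding symbols, and 3 of 7 have one marked for nonsense-mediated decay, beside 29.8%. Tardbp, whose protein regulates its own transcript, has 10 transcripts of the decay class among 30, and Nono has 4 with a retained intron among 7. Ewsr1 and Sfpq have neither kind.

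Other paraspeckle components, 27 tested loci of 26 symbols without the members, were compared between compartments in the same fit. Of these 12 were higher in nuclear samples, 3 were lower and 12 did not pass, with a median of 0.32 beside 0.14 for all loci, of which 15.3% were higher and 15.8% lower. Neat1, the RNA on which paraspeckles assemble, was higher by 1.06 (adjusted p = 4.50e-06, limma), beside 1.03 for Pspc1. The next 3 by mean count were also higher: Hnrnph1 (0.74), a splicing regulator gene, Cpsf6 (0.45), a subunit gene of a cleavage and polyadenylation factor, and Srsf10 (0.27), a splicing factor gene. The 3 lower loci were Nudt21 (-1.62), which encodes the partner of CPSF6, Ugp2 (-1.55), which encodes an enzyme of sugar nucleotide synthesis, and Hnrnpf (-0.67).

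Among 27 loci of hnRNP and related genes, the wider family of nuclear RNA-binding proteins, 8 were higher and 11 lower, beside the same 15.3% and 15.8% of all loci, with a median of -0.08. The 3 with the highest mean counts, Ptbp2 (0.95), Hnrnpu (0.49) and Hnrnph1 (0.74), were all higher, while the lowest difference in the list, picked after its value was seen, was that of Pcbp2 (-2.72). Of 16 loci of stress granule proteins 5 were higher and 4 lower, beside those same shares, with a median of -0.02. Of its 3 most abundant loci, Pabpc1 (-2.10), which encodes the cytoplasmic poly(A)-binding protein, and Caprin1 (-0.30) were lower, and Pum2 (-0.09) did not pass. No locus of the 3 lists was called between miR-92b and Scr in either compartment by limma. Hnrnpf, Hnrnph1, Hnrnph3, Hnrnpk, Hnrnpm, Hnrnpr and Hnrnpul1 stand in both the paraspeckle and the hnRNP list, and Ubap2l in both the paraspeckle and the stress granule list.

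Over the 18 samples, Ewsr1, Taf15, Tardbp, Sfpq, Pspc1 and Matr3 had pairwise correlations of log2 normalized counts between 0.71 and 0.95, and Nono was negatively correlated with each of them (-0.74 to -0.47). All points share the compartment difference and the size factors, so these are descriptions. Without whole cell miR-92b sample 3 Nono stood at -0.60 to -0.36. Among 9484 other loci of 1 symbol, the nearest patterns were Kcnq1ot1 (Pearson's r 0.985) and Kidins220 (0.984) for Pspc1, C130073E24Rik (0.984) for Sfpq, Brd9 (0.984) and Srsf11 (0.976) for Ewsr1, and Adar (0.961) for Taf15. Tardbp was nearest to BC002059 (0.949) and Matr3 to Orc4 (0.926). Nono was nearest to Mrpl10 (0.902), Ndufb5 (0.894) and Taf6 (0.890), of which the first is a mitochondrial ribosomal protein gene and the second a gene of respiratory complex I.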

How the data were processed

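RNA from 18 N2A samples was sequenced on an Illumina HiSeq 4000. Per the labels and methods, reads were trimmed with Trimmomatic 0.30, aligned to GRCm38 (mm10) with TopHat2, assembled with Cufflinks and compared with Cuffdiff. The normalized counts deposited by the authors are a signal, in which the reads of a locus were divided by a size factor of the sample. FPKM values, also deposited, had been scaled by the authors to transcript length and mapped fragments. The authors' comparison tables (group FPKM, log2 fold changes, p-values and q-values) were not used. The 115957 loci without a symbol, with 4.51% to 15.3% of the reads, were left out.

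Normalized counts were whole multiples of 1 read for 99.9% of 635205 values (within 0.02 reads), so reads were recovered for edgeR 4.0.16 and DESeq2 1.42.0 as alternatives. The main test was limma 3.58.1 (R 4.3.3) with the trend option, on log2(normalized count + 1), for loci with a mean of at least 10, fitted to all 6 groups at once, with two-sided p-values adjusted by Benjamini-Hochberg over 15579 loci and a threshold of 0.05. Implied transcript length was log2(normalized count / FPKM), centred on the median of each sample, for loci with a mean of at least 50. Ratios between members were tested by exact permutation within treatments. Both fits were run on simulated data with 200 changed loci. No simulated sample stood apart as whole cell miR-92b sample 3 does, so this run does not cover that case. One marker gene is not reported here. Samples were grouped by the titles and treatments in the labels. Of the tested loci 1197 join several symbols. Genes were named by a rule: all members and the 3 loci nearest in pattern to each member. From each list it took the 3 loci with the highest mean count plus Neat1. Some of the nearest loci are left out of the text, and Nudt21, Ugp2, Hnrnpf and Pcbp2 were named by their differences, outside the rule. The members, lists and tests were chosen with earlier results of these data known.

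As alternatives, the pseudocount was set to 0.5 or 8, the minimum mean was set to 1 or 50 or dropped, FPKM (pseudocount 0.1) replaced the counts, all samples were given 1 median, the fit was limited to the groups compared, the sample number was added as a replicate block, edgeR or DESeq2 replaced limma, and each sample was left out in turn. For implied length they were no centring, a mean of at least 200, the block and each sample left out. Omission of whole cell miR-92b sample 3 and use of FPKM for the ratios were added after seeing the data.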

Additional observations from a re-analysis of the deposited data

How the results depend on the processing

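Across 11 alternatives, the 6 calls of nuclear against whole cell samples over all treatments remained 6 in 10 and were 4 on the FPKM scale, and with 1 sample left out the count was 6 to 7. Within treatments the counts moved. The share of all loci called moved as well, and it is not given beside each count here. Without whole cell miR-92b sample 3 this share went from 9.85% to 15.6% in control cells and from 13.3% to 6.26% with miR-92b. In control cells 2 calls became 0 on the FPKM scale, 5 with samples rescaled to the same median, 6 with the compared groups alone and 5 with DESeq2, and ranged from 1 to 6 with 1 sample left out. With Scr 1 call became 0 without a filter and 0 on the FPKM scale, and 0 to 2 with 1 sample left out. With miR-92b 5 calls became 3 without a filter, 1 on the FPKM scale (Nono, lower, which is none of the 5) and 0 with the compared groups alone, and 1 to 6 with 1 sample left out. Taf15 also lost its call there with edgeR (adjusted p = 0.0734, edgeR). It lost it too with DESeq2 (adjusted p = 0.0516, DESeq2), where Matr3 was called instead (adjusted p = 0.00700, DESeq2). The counts of 0 between treatments stayed at 0 in every alternative run. For implied length 1 call ranged from 0 to 2 with 1 sample left out, and without centring the 1 call was Matr3 (0.47) in place of Taf15 (-0.038). The cause was not tested.

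On the FPKM scale signs turned, also for differences far from 0 such as that of Tardbp with miR-92b (0.65 on the scale of counts), for Matr3 over all treatments (-0.078), for Ewsr1 (-0.077), Sfpq (-0.026), Nono (-0.49) and Matr3 (-0.066) with Scr, for Tardbp (-0.047) and Matr3 (-0.34) with miR-92b, for Tardbp (-0.42), Sfpq (0.22) and Pspc1 (0.14) between miR-92b and Scr in nuclear samples, and for Tardbp (0.065) and Pspc1 (0.34) in whole cell samples. They turned for Pspc1 between nuclear miR-92b and Scr with rescaled samples (0.016), and with edgeR for Nono in Scr (-0.0038) and, between nuclear miR-92b and Scr, for Sfpq (0.0082) and Pspc1 (0.035). With 1 sample left out, miR-92b against Scr ranged in nuclear samples from -0.046 to 0.023 (Pspc1), -0.065 to 0.0082 (Sfpq) and -0.18 to 0.036 (Matr3), and in whole cell samples from -0.66 to 0.066 (Ewsr1), -0.60 to 0.19 (Taf15), -0.37 to 0.0049 (Tardbp) and -0.63 to 0.095 (Sfpq). Nuclear against whole cell Nono with Scr ranged from -0.13 to 0.10, and implied length from -0.059 to 0.18 (Tardbp) and -0.032 to 0.39 (Pspc1).

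Same-numbered samples did not deviate together (correlations of deviations -0.044 to 0.11 over 45 pairs, median 0.0022, against -0.11 to 0.067 for 90 pairs with other numbers), so the numbers were not taken to pair the samples. With the replicate block the count was 6 over all treatments, 3 in control, 1 with Scr and 5 with miR-92b, and it changed no other count.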
